A study of Mus musculus with 32 samples.

Results

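The livers of palm oil and water-gavaged mice were compared here for 41 genes of amino acid catabolism and the urea cycle. The genes were chosen by name from their place in these pathways and not by their measured values, with earlier results of these data known. Of these, 38 were measured among the 22180 genes with a single symbol on the array, and Sds, Sdsl and Gls2 are not analysed here. The mice were 14-week-old wild-type C57BL/6NTac males that had fasted for 10 h and then received palm oil at 2 g/kg, or water as the control, by gavage. There were 7 control basal, 9 palm oil basal, 7 control clamped and 9 palm oil clamped mice, each measured on 1 Affymetrix array of whole liver RNA. Basal mice had no catheter and were killed under isoflurane 6 h after the gavage. Clamped mice had received a jugular vein catheter under ketamine and xylazine about 1 week earlier. From 6 h after the gavage they were given a glucose tracer for 110 min and then a hyperinsulinemic-euglycemic clamp, in which insulin ran at 15 pmol/kg/min while glucose was infused to hold glycaemia, and they were killed with ketamine and xylazine. In every clamped minus basal comparison, insulin, surgery, tracer, glucose, anaesthesia, the longer time after the last meal and the separate runs of animal numbers therefore cannot be told apart.

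The liver takes up amino acids that arrive from the gut or from muscle and breaks their carbon skeletons down to pyruvate, acetyl-CoA or intermediates of the citric acid cycle. The nitrogen is passed by aminotransferases to glutamate and aspartate and leaves the periportal hepatocyte as urea. In fasting, glucagon and glucocorticoids are known to raise many of these enzymes at the transcript level, and insulin is known to oppose this for several of them. Tat, tyrosine aminotransferase, is a classic glucocorticoid and glucagon target of hepatocytes and serves as the marker gene of the list.

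Values are log2 expression values, so that a difference of 1 is a 2-fold difference in signal. Tat read 9.46 to 10.41 (median 10.18) in control basal livers, far above the median of all genes, 1.83. The 38 members all had a mean level above that median. The probe sets of Ass1, argininosuccinate synthase, and Bhmt, betaine homocysteine methyltransferase, read near it, at group medians of 3.29 to 3.72 and 1.82 to 2.23. Both genes are known to be abundant in liver, so these probe sets may not measure them well, and their differences are given as array values only.

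Some arrays stood apart. Of the basal mice, 7 with animal numbers from 44 up (4 control, 3 palm oil) had array interquartile ranges of 2.44 to 2.54, below all of the other 9 basal arrays (2.72 to 2.96) and all 16 clamped arrays (2.64 to 2.85). Transcripts of pancreatic acinar cells averaged above 6 log2 units, over 14 of 17 listed markers that were measured, in 4 control basal, 5 palm oil basal, 1 control clamped and 2 palm oil clamped arrays. Control clamped replicate 6 held the lowest value of its group for 25 of the 38 members, and palm oil clamped replicate 2 the highest of its group for 23. Calls of members in control or palm oil mice that were lost without these arrays are given with both values. For the average of the control and palm oil clamp differences only the loss of a call is given. For genes outside the list only the range of the counts is given. The groups were compared by limma on all arrays with an adjusted p under 0.05 as the threshold.

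Stretches upstream of the start site are shown for 3 members whose transcripts changed in both gavage groups, Tat as the gene that rose and Prodh2 and Ftcd among those that fell. They are the 200 bases before the RefSeq start site in GRCm38.p6, read 5′ to 3′ on the plus strand, and capitals mark TATAAA, the core of the TATA box. Tat lies at chr8:109990236-109990435, Prodh2 at chr7:30493458-30493657 and Ftcd at chr10:76575448-76575647.
Tat: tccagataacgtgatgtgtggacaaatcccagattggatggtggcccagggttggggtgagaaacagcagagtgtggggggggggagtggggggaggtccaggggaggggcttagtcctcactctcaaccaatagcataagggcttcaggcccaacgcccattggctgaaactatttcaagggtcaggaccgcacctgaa
Prodh2: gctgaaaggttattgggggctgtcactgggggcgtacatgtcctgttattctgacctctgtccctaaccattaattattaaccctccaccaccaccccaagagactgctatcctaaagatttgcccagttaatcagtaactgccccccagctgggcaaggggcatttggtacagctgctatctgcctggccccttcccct
Ftcd: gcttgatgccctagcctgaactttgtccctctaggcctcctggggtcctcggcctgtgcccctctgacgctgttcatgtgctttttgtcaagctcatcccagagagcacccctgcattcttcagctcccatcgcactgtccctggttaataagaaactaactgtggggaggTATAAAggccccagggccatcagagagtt
RefSeq promoter windows, from 250 bases before to 50 after the start, matched 30 of the 38 measured members in 32 windows, and motifs were searched on both strands. TATAAA was present in 5 members, at position -29 in Ftcd and at -28 on the other strand in Hal, and in 13.6% of all 32851 windows. TGACGTCA, the cAMP response element, was found in 0 member windows and 1.79% of all. TGTTTAC, a core shared by FOXO and FOXA factors, was found in 0 and 3.65%, and the CEBP palindrome TTGCGCAA in 0 and 0.183%. TTGCATCA, a composite of CEBP and ATF sites, occurred in 1 member, Got1, and in 0.895% of all windows. AGAACA, the core of a glucocorticoid receptor site, occurred in 3 members, Kmo, Haao and Bckdhb, and in 19% of all. These matches describe letters within short windows and say nothing about binding.

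Between basal and clamped livers, Tat rose and Amt, Prodh2, Bcat2 and Ftcd fell in both gavage groups, and none of the 6 urea cycle genes passed the test in either. In control mice 1 of the 38 members rose and 10 fell. Over all genes 4.66% rose and 4.09% fell, and among genes above the median level 9.04% rose and 7.49% fell. In palm oil mice 2 members rose and 4 fell, against 3.76% and 3.8% of all genes and 7.25% and 7% of those above the median level. The members that fell in control mice made up 26.3% of those measured, and in palm oil mice 10.5%. The risers, 2.63% and 5.26%, lay near the shares of all genes. The median difference of the members was -0.18 in control mice, where that of all genes was -0.02, and 0.05 in palm oil mice, where it was -0.02. Leaving out each array in turn gave medians of -0.26 to -0.07 in control mice, the latter without control clamped replicate 6, and 0.02 to 0.10 in palm oil mice, the former without palm oil clamped replicate 2. Both clamp differences were also averaged, a comparison added after the data were seen, which rests on all 32 arrays. In that average 5 members rose (Tat, Tdo2, Aass, Cps1 and Nags) and 12 fell (Haao, Amt, Got2, Prodh2, Aldh4a1, Bcat2, Bckdha, Hal, Uroc1, Amdhd1, Ftcd and Cbs). Its shares over all genes were 8.39% rising and 8.46% falling, and 16% and 15% among genes above the median level.

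**Figure D1:**
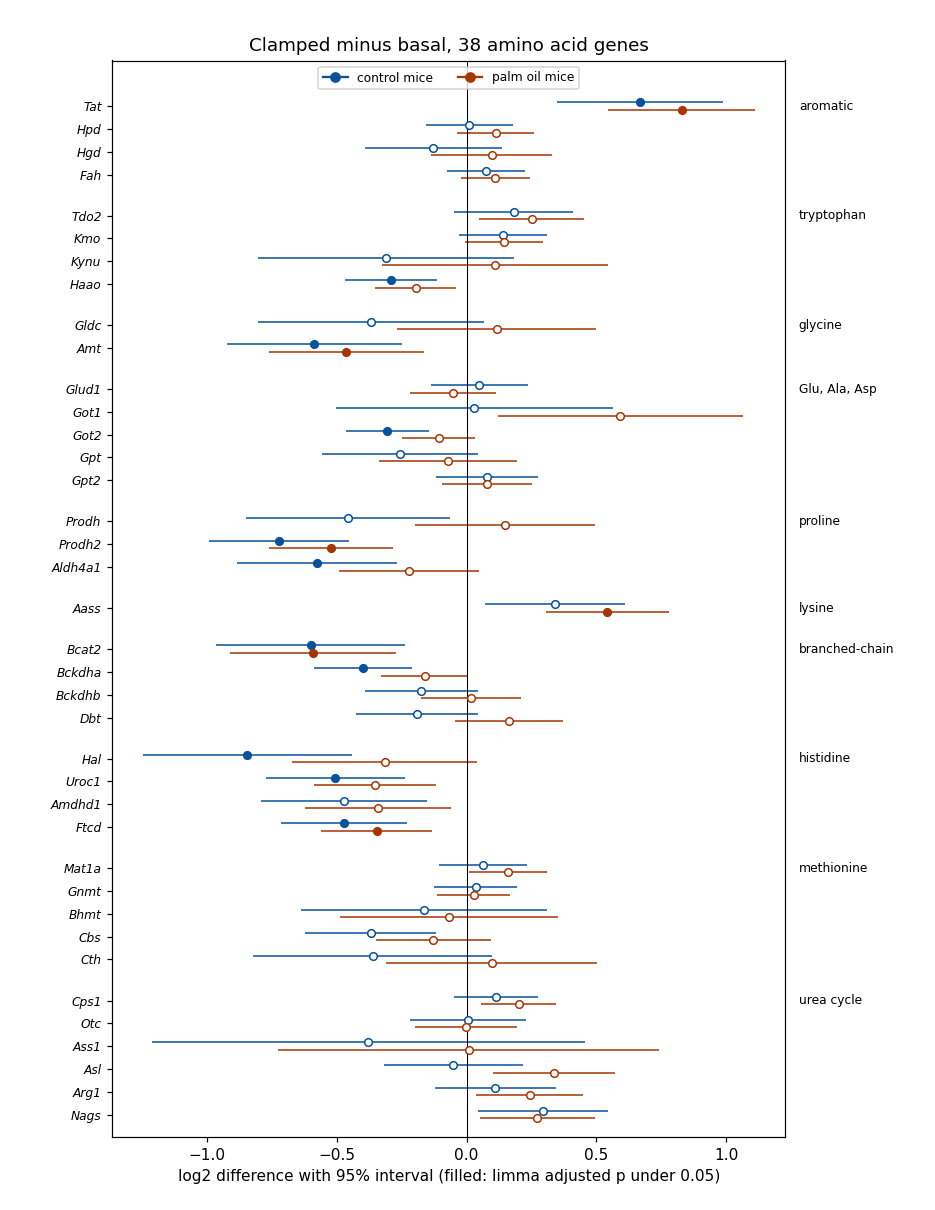
Log2 difference of clamped minus basal mice with its 95% interval for the 38 measured members, grouped by the amino acid they act on, in control mice (blue, n = 7 and 7) and palm oil mice (brown, n = 9 and 9). Filled points passed the limma test. All 4 histidine genes lie left of 0 in both groups of mice, Tat and Aass lie right of it, and the points of Otc lie at 0.

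Among the genes of aromatic amino acids, Tat rose in both gavage groups. In control mice Tat values were 9.46 to 10.41 (median 10.18) in basal and 10.39 to 10.83 (median 10.69) in clamped livers, and in palm oil mice 9.02 to 10.41 (median 10.00) and 10.49 to 11.01 (median 10.69). Every palm oil clamped value lay above every palm oil basal value, and in control mice 6 of 7 clamped values did. The rise was 0.67 ± 0.16 (log2 difference ± SE, 1.59-fold, n = 7 and 7, limma adjusted p = 0.00456) in control mice and 0.83 ± 0.14 (1.78-fold, n = 9 and 9, adjusted p = 8.26e-05) in palm oil mice. Basal levels of Tat were not uniform. Its mean was 9.63 in the 7 basal mice numbered 44 or higher, 10.17 in the other 9 and 10.69 in the clamped mice. Without the former 7 the difference was 0.41 (limma adjusted p = 0.0642) in control and 0.58 (adjusted p = 0.000344) in palm oil mice, and without the other 9 it was 0.86 and 1.32. The enzymes downstream of Tat in tyrosine breakdown, Hpd, Hgd and Fah, had differences between -0.13 and 0.11, and none passed.

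Tryptophan breakdown starts with Tdo2, tryptophan 2,3-dioxygenase, and runs through Kmo, kynurenine 3-monooxygenase, Kynu, kynureninase, and Haao, 3-hydroxyanthranilate dioxygenase. In both gavage groups its first listed step lay above 0 and its last below 0, but only Haao in control mice passed. Tdo2 differed by 0.18 ± 0.11 in control and 0.25 ± 0.10 in palm oil mice, neither past the test, and rose in the average of both (0.22 ± 0.08, limma adjusted p = 0.0435). That averaged call was lost without the 7 basal arrays numbered 44 or higher and without the acinar-high arrays. It was also lost with the acinar level as a term. Haao values in control mice were 8.96 to 9.25 (median 9.06) in basal and 8.60 to 9.05 (median 8.74) in clamped livers, with 6 of 7 clamped values below every basal one. Haao fell there (-0.29 ± 0.09, limma adjusted p = 0.0286) and differed by -0.20 ± 0.08 in palm oil mice (adjusted p = 0.131). The control call was lost without the 7 basal arrays numbered 44 or higher (-0.36, adjusted p = 0.0749), the other 9 (-0.24, 0.134), the acinar-high arrays (-0.35, 0.136) or control clamped replicate 6 (-0.26, 0.0667). Adding the acinar level as a term removed the call as well. Kmo differed by 0.14 ± 0.08 and 0.14 ± 0.07. Kynu had the widest intervals of the 4, with control clamped values of 5.30 to 7.70 (median 6.97), and its differences of -0.31 ± 0.24 and 0.11 ± 0.21 did not pass.

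Aass, the bifunctional synthase that opens the lysine degradation pathway, was the other member that rose. Its values were 8.57 to 9.39 (median 8.92) in control basal and 9.11 to 9.57 (median 9.20) in control clamped livers, which overlapped. Palm oil mice read 8.59 to 9.10 (median 8.88) in basal and 9.04 to 9.93 (median 9.34) in clamped livers, with 8 of 9 clamped values above every basal one. The difference was 0.34 ± 0.13 in control mice (limma adjusted p = 0.112) and 0.54 ± 0.12 in palm oil mice (1.46-fold, adjusted p = 0.00191). Without the 12 arrays high in acinar markers the palm oil difference was 0.42 (adjusted p = 0.2).

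**Figure D2:**
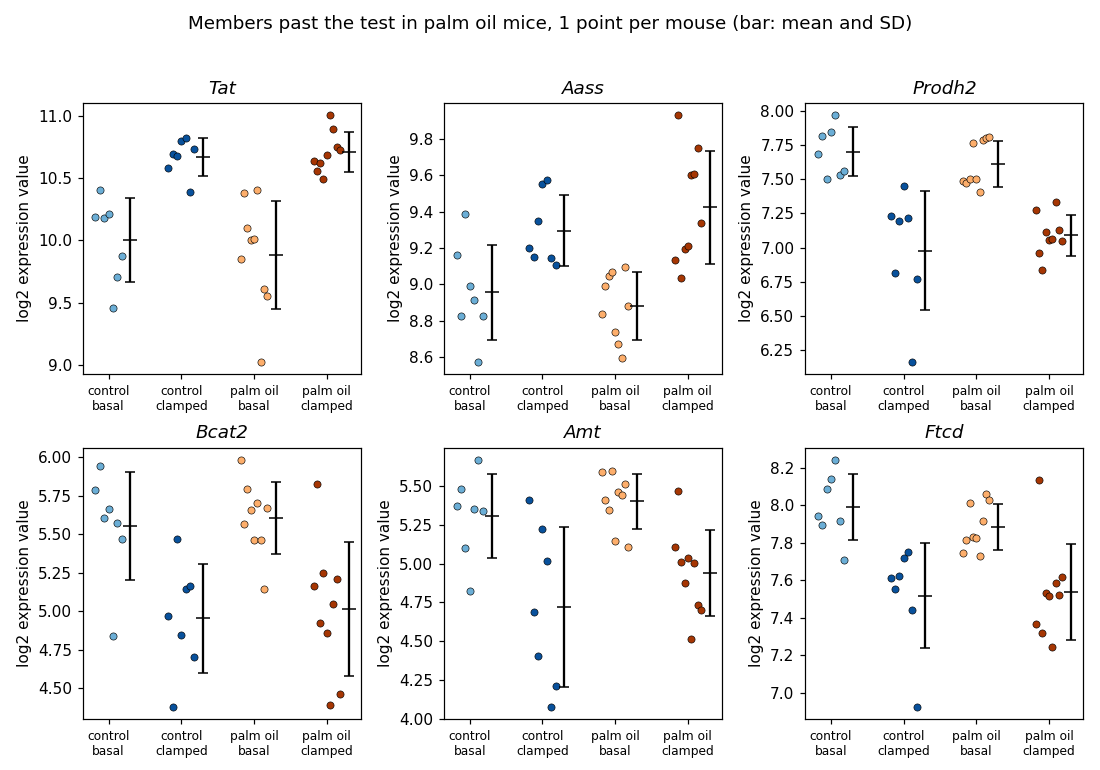
Log2 expression values of the 6 members past the limma test in palm oil mice, with 1 point per mouse in each of the 4 groups (7 control basal, 7 control clamped, 9 palm oil basal, 9 palm oil clamped) and the mean with its SD beside the points. Clamped values of Tat lie above and those of Prodh2 below the basal values in palm oil mice without overlap, and 1 palm oil clamped mouse stands high for Ftcd (8.13).

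Of the 3 genes of proline breakdown, Prodh2 and Aldh4a1 fell in control mice and Prodh2 in palm oil mice. Prodh2, which oxidises hydroxyproline and proline, read 7.50 to 7.97 (median 7.68) in control basal and 6.17 to 7.45 (median 7.20) in control clamped livers, and 7.41 to 7.81 (median 7.50) in palm oil basal and 6.84 to 7.33 (median 7.06) in palm oil clamped livers. Clamped and basal values did not overlap in either gavage group. Prodh2 fell 1.65-fold in control mice (-0.72 ± 0.13, limma adjusted p = 0.000315) and 1.44-fold in palm oil mice (-0.52 ± 0.12, adjusted p = 0.00299). It differed by -0.43 (adjusted p = 0.0565) in palm oil mice without the 7 basal arrays numbered 44 or higher, and by -0.49 (adjusted p = 0.151) without the arrays high in acinar markers. Aldh4a1, which converts the product of proline oxidation to glutamate, read 7.33 to 7.62 (median 7.52) in control basal and 6.01 to 7.43 (median 7.03) in control clamped livers. It fell in control mice (-0.58 ± 0.15, limma adjusted p = 0.0111), with 6 of 7 clamped values below every basal one, and differed by -0.22 ± 0.13 (adjusted p = 0.405) in palm oil mice. The control call of Aldh4a1 was lost without the 7 basal arrays (-0.52, adjusted p = 0.173), without the acinar-high arrays (-0.62, 0.127) and with the acinar level as a term (-0.49, 0.0655). Prodh, the proline dehydrogenase itself, differed by -0.46 ± 0.19 and 0.15 ± 0.17, neither past the test. The control value rests on control clamped replicate 6, which read 5.08 where the next lowest mouse read 6.51, and was -0.20 without it.

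The histidine pathway was the only role group among those of more than 1 gene in which every member lay below 0 in both gavage groups. Hal, histidine ammonia-lyase, Uroc1, urocanase, Amdhd1, which opens the imidazolone ring, and Ftcd, which passes the formimino group to folate, act in that order. Hal values were 8.08 to 9.09 (median 8.41) in control basal and 6.91 to 7.98 (median 7.69) in control clamped livers, without overlap. Hal fell 1.8-fold there, the largest fall among the members (-0.85 ± 0.20, limma adjusted p = 0.00439). That call was lost without the 9 basal arrays numbered below 44 (-0.65, adjusted p = 0.0692) and without the acinar-high arrays (-0.84, 0.0792). With palm oil, Hal read 7.84 to 8.87 (median 8.33) in basal and 7.56 to 9.14 (median 7.86) in clamped livers and differed by -0.32 ± 0.17 (adjusted p = 0.35). The highest of these clamped values, 9.14, was that of palm oil clamped replicate 2, without which the difference was -0.46 (adjusted p = 0.0544).

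Uroc1 read 7.72 to 8.06 (median 7.96) in control basal and 6.84 to 7.83 (median 7.45) in control clamped livers, with some overlap, and fell (-0.51 ± 0.13, limma adjusted p = 0.0103). Without the 7 basal arrays numbered 44 or higher the difference was -0.43 (adjusted p = 0.205). The call was lost under 4 of 51 alternatives, among them the compared groups alone (limma adjusted p = 0.0616). Palm oil mice had Uroc1 values of 7.75 to 8.12 (median 7.87) in basal and 7.29 to 7.93 (median 7.47) in clamped livers, a difference of -0.35 ± 0.12 (adjusted p = 0.057). That difference passed under 12 of 51 alternatives, among them the threshold of 0.1 and the compared groups alone (limma adjusted p = 0.0259). Ftcd read 7.71 to 8.24 (median 7.94) in control basal, 6.93 to 7.75 (median 7.61) in control clamped, 7.73 to 8.06 (median 7.83) in palm oil basal and 7.25 to 8.13 (median 7.52) in palm oil clamped livers. It fell 1.39-fold in control (-0.47 ± 0.12, limma adjusted p = 0.00828) and 1.27-fold in palm oil mice (-0.35 ± 0.11, adjusted p = 0.0356). Among the latter, 8 of 9 clamped Ftcd values lay below every basal one, and replicate 2 lay above them all. The control call was lost without the 7 basal arrays (-0.46, adjusted p = 0.1). The palm oil call was lost under 18 of 51 alternatives, among them 10 that left out a single array. It was -0.29 (adjusted p = 0.186) without the 7 basal arrays, -0.46 (0.0794) without the other 9, -0.33 (0.348) without the acinar-high arrays and -0.35 (0.0683) with the acinar level as a term. Amdhd1 differed by -0.47 ± 0.16 (adjusted p = 0.0544) and -0.34 ± 0.14 (adjusted p = 0.152), and fell in the average of both (-0.41 ± 0.11, limma adjusted p = 0.00514). In that average all 4 histidine genes fell. Without the 9 basal arrays numbered below 44, Hal and Amdhd1 no longer passed in it.

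Of the branched-chain genes, Bcat2 fell in both gavage groups. Bcat2 is the mitochondrial branched-chain aminotransferase, known to be abundant in pancreas and muscle and scarce in hepatocytes. It read 4.84 to 5.94 (median 5.61) in control basal, 4.38 to 5.47 (median 4.97) in control clamped, 5.15 to 5.98 (median 5.66) in palm oil basal and 4.39 to 5.83 (median 5.04) in palm oil clamped livers, and the groups overlapped in both comparisons. The differences were -0.60 ± 0.18 (1.52-fold, limma adjusted p = 0.0283) and -0.59 ± 0.16 (1.51-fold, adjusted p = 0.0144). All 14 measured acinar markers were lower in clamped mice, with a median difference of -3.29 in the control and -2.83 in the palm oil mice. The mean acinar level ran from 2.28 to 9.12 in control basal, 1.71 to 9.53 in palm oil basal, 1.65 to 8.64 in control clamped and 1.78 to 7.46 in palm oil clamped arrays. With that level as a term, the Bcat2 difference was -0.60 (adjusted p = 0.0648) in control and -0.59 (adjusted p = 0.0353) in palm oil mice. Without the 9 basal arrays numbered below 44 it was -0.43 (adjusted p = 0.237) and -0.41 (adjusted p = 0.314). The control call was also lost when replicate 1, 2 or 4 of the basal or replicate 2 or 7 of the clamped control mice was left out, with differences of -0.58 to -0.51. Without the 12 acinar-high arrays the differences were -0.50 (adjusted p = 0.27) and -0.66 (adjusted p = 0.0977). In bulk liver, fewer cells of a type and less RNA per cell cannot be told apart.

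The branched-chain ketoacid dehydrogenase, which commits these skeletons to oxidation, changed in 1 of its 3 listed subunits. Bckdha, the E1 alpha subunit, read 7.02 to 7.43 (median 7.18) in control basal and 6.50 to 7.10 (median 6.81) in control clamped livers, with 6 of 7 clamped values below every basal one. It fell (-0.40 ± 0.09, limma adjusted p = 0.00396) and differed by -0.16 ± 0.08 (adjusted p = 0.285) in palm oil mice. With the 7 basal arrays numbered 44 or higher left out, the control difference was -0.34 (adjusted p = 0.0934). Bckdhb, the E1 beta subunit, and Dbt, the E2 core, differed by -0.17 ± 0.11 and -0.19 ± 0.12 in control mice and by 0.02 ± 0.09 and 0.16 ± 0.10 in palm oil mice, and neither passed.

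In the glycine cleavage system, the aminomethyltransferase Amt fell and the decarboxylase Gldc did not pass. Amt read 4.82 to 5.67 (median 5.35) in control basal, 4.08 to 5.41 (median 4.69) in control clamped, 5.11 to 5.60 (median 5.45) in palm oil basal and 4.51 to 5.47 (median 5.0) in palm oil clamped livers, with overlap in both comparisons. It fell 1.5-fold in control mice (-0.59 ± 0.17, limma adjusted p = 0.0202) and 1.38-fold in palm oil mice (-0.46 ± 0.15, adjusted p = 0.0464). Both calls depended on the arrays used. The palm oil call was lost under 26 of 51 alternatives, of which 19 left out a single array, with differences of -0.53 to -0.41 over all of them, and with the replicate number as a block (adjusted p = 0.0514). Without the 7 basal arrays numbered 44 or higher the palm oil difference was -0.49 (limma adjusted p = 0.0959). It was -0.42 (0.296) without the other 9 and -0.52 (0.247) without the acinar-high arrays. The control call was lost under 9 of 51, and its difference lay between -0.70 and -0.32 over all 51. It was lost with the compared groups alone (adjusted p = 0.0991), and when replicate 6 of the control basal mice, or replicate 6 or 7 of the control clamped mice, was left out. Without control clamped replicate 6 the control difference was -0.48 (limma adjusted p = 0.0619). The control difference was -0.32 (adjusted p = 0.541) without the acinar-high arrays, -0.60 (0.136) without the 7 basal arrays and -0.58 (0.095) without the other 9. Gldc differed by -0.37 ± 0.21 and 0.12 ± 0.19.

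Among the enzymes of glutamate, alanine and aspartate, the mitochondrial aspartate aminotransferase Got2 fell in control mice alone of the 5 measured. Its control clamped values, 9.03 to 9.25 (median 9.05), lay below all control basal values, 9.31 to 9.54 (median 9.39), and the difference was -0.31 ± 0.08 (limma adjusted p = 0.00999). It was -0.23 (adjusted p = 0.218) without the 7 basal arrays numbered 44 or higher and -0.38 (0.051) without the acinar-high arrays. In palm oil mice it differed by -0.11 ± 0.07 (adjusted p = 0.45). A second, dimmer probe set of Got2 gave -0.03 in control and -0.02 in palm oil mice. The cytosolic enzyme Got1 differed by 0.03 ± 0.26 in control and 0.59 ± 0.23 in palm oil mice (adjusted p = 0.13), with palm oil clamped values spread from 7.81 to 9.65. Glud1, glutamate dehydrogenase, Gpt and Gpt2, the alanine aminotransferases, had differences between -0.26 and 0.08.

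The methionine and transsulfuration genes had no member past the test in either gavage group. Cbs, cystathionine beta-synthase, differed by -0.37 ± 0.12 in control mice (limma adjusted p = 0.058) and -0.13 ± 0.11 in palm oil mice, and fell in the average of both (-0.25 ± 0.08, adjusted p = 0.0338). This averaged call was lost without the 7 basal arrays numbered 44 or higher and without the acinar-high arrays. It was also lost with the acinar level as a term. Mat1a, which makes S-adenosylmethionine, differed by 0.06 ± 0.08 and 0.16 ± 0.07, and Gnmt, which consumes it, by 0.04 ± 0.08 and 0.03 ± 0.07. The dim probe set of Bhmt gave -0.16 ± 0.23 and -0.07 ± 0.21. Cth, cystathionine gamma-lyase, differed by -0.36 ± 0.23 and 0.10 ± 0.20, and 1 control clamped mouse read 7.41 against a group median of 9.52.

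None of the 6 urea cycle genes, Ass1 with its doubtful probe set included, passed in either clamp comparison. Cps1, carbamoyl phosphate synthetase and the entry enzyme of the cycle, read 10.46 to 10.88 (median 10.70) in control basal, 10.69 to 10.90 (median 10.83) in control clamped, 10.51 to 10.81 (median 10.61) in palm oil basal and 10.73 to 11.01 (median 10.82) in palm oil clamped livers. The clamped groups lay slightly higher with overlap, by 0.11 ± 0.08 (limma adjusted p = 0.469) and 0.20 ± 0.07 (adjusted p = 0.0832). Nags, which makes the activator of Cps1, read 6.19 to 7.00 (median 6.68) and 6.55 to 7.25 (median 7.00) in control and 6.22 to 6.83 (median 6.54) and 6.41 to 7.16 (median 6.78) in palm oil mice. Its clamped mice were higher by 0.29 ± 0.12 (adjusted p = 0.152) and 0.27 ± 0.11 (adjusted p = 0.142). In the average of both, Cps1 (0.16 ± 0.05, adjusted p = 0.0394) and Nags (0.28 ± 0.08, adjusted p = 0.0138) rose. The averaged call of Cps1 was lost without the 7 basal arrays numbered 44 or higher and without the acinar-high arrays. It was also lost with the acinar level as a term. That of Nags was lost without the other 9 basal arrays. The second probe set of Nags gave 0.16 and 0.12.

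Otc, ornithine transcarbamylase, read 8.62 to 9.04 (median 8.83) and 8.15 to 9.23 (median 8.95) in control and 8.76 to 9.20 (median 8.96) and 8.84 to 9.06 (median 8.95) in palm oil mice. Its clamp differences were 0.01 ± 0.11 (95% interval -0.22 to 0.23) and 0.00 ± 0.10 (-0.20 to 0.19). Asl, argininosuccinate lyase, read 9.44 to 10.06 (median 9.96) and 9.14 to 10.08 (median 9.85) in control and 9.36 to 9.99 (median 9.59) and 9.63 to 10.35 (median 9.98) in palm oil mice, differences of -0.05 ± 0.13 and 0.34 ± 0.12 (limma adjusted p = 0.0736). Asl passed in palm oil mice under 7 of 51 alternatives, among them the threshold of 0.1. With the compared groups alone the same difference had a limma adjusted p of 0.0468. Without control clamped replicate 6, an array outside this comparison that enters the shared spread, it had 0.0366. Arg1, the arginase that releases urea, read 9.51 to 10.18 (median 9.91) and 9.84 to 10.37 (median 9.93) in control and 9.38 to 10.05 (median 9.93) and 9.89 to 10.35 (median 10.02) in palm oil mice, differences of 0.11 ± 0.12 and 0.24 ± 0.10 (adjusted p = 0.166). Its palm oil difference passed under 2 of 51 alternatives, 1 of them the basal part as a block (0.29, limma adjusted p = 0.0148). Ass1, near background, read 1.71 to 4.59 (median 3.72) and 1.08 to 4.20 (median 3.36) in control and 2.34 to 4.16 (median 3.59) and 2.92 to 4.38 (median 3.29) in palm oil mice, and its intervals, -1.21 to 0.45 and -0.73 to 0.74, were the widest of the members.

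**Figure D3:**
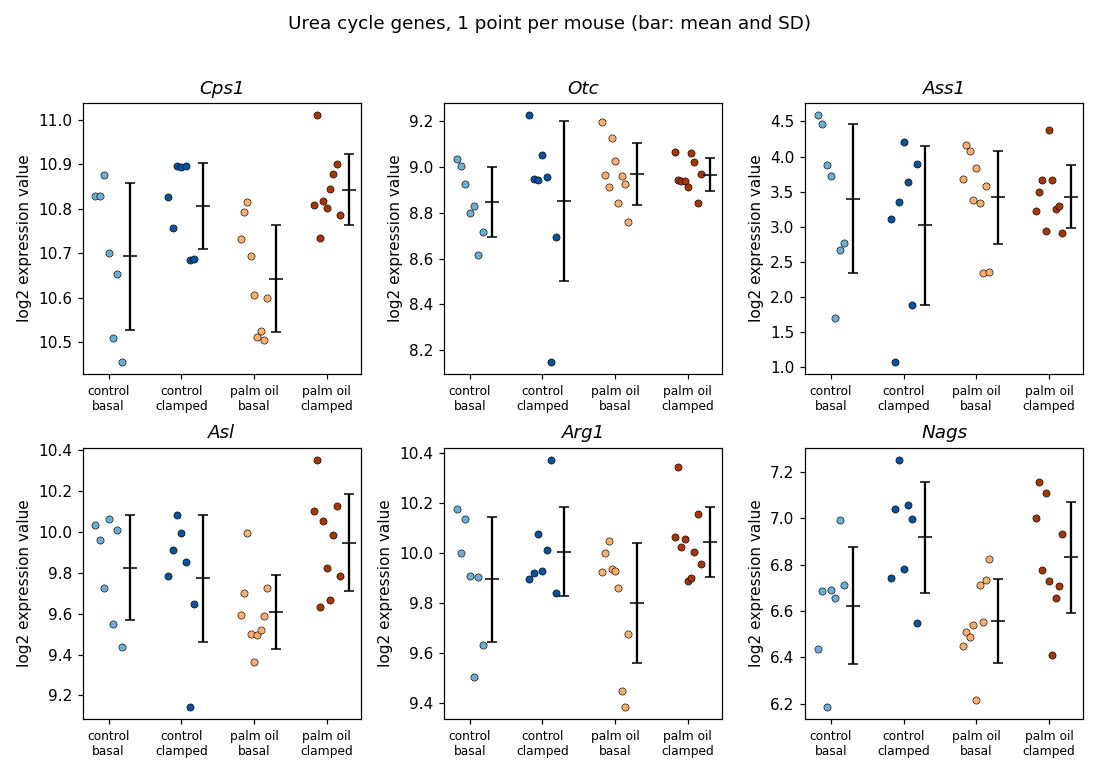
Log2 expression values of the 6 urea cycle genes, with 1 point per mouse in each of the 4 groups and the mean with its SD beside the points. Clamped and basal values overlap for every gene in both gavage groups, and Ass1 lies near background with the widest spread.

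Arg1 and Cps1, like Tat, were lowest in the basal mice with the highest animal numbers. Arg1 averaged 9.64 in the 7 basal mice numbered 44 or higher, 10.00 in the other 9 and 10.03 in the clamped mice, and Cps1 averaged 10.56, 10.74 and 10.83. Against the 3 palm oil basal mice numbered 44 or higher alone, Arg1 (0.54, limma adjusted p = 0.00627) and Cps1 (0.30, adjusted p = 0.0427) rose in palm oil mice. Against the other 6 the differences were 0.09 (adjusted p = 0.654) and 0.15 (adjusted p = 0.248). The mean level of the hepatocyte markers was also lower there, 10.05 to 10.25 in the 7 arrays against 10.30 to 10.49 in the other 9 and 10.39 to 10.59 in the clamped arrays, and its part in these differences was not tested. Prodh2 ran in the opposite order, with means of 7.76, 7.57 and 7.04. For it too, the basal mice numbered 44 or higher lay farthest from the clamped mice on average.

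**Figure D4:**
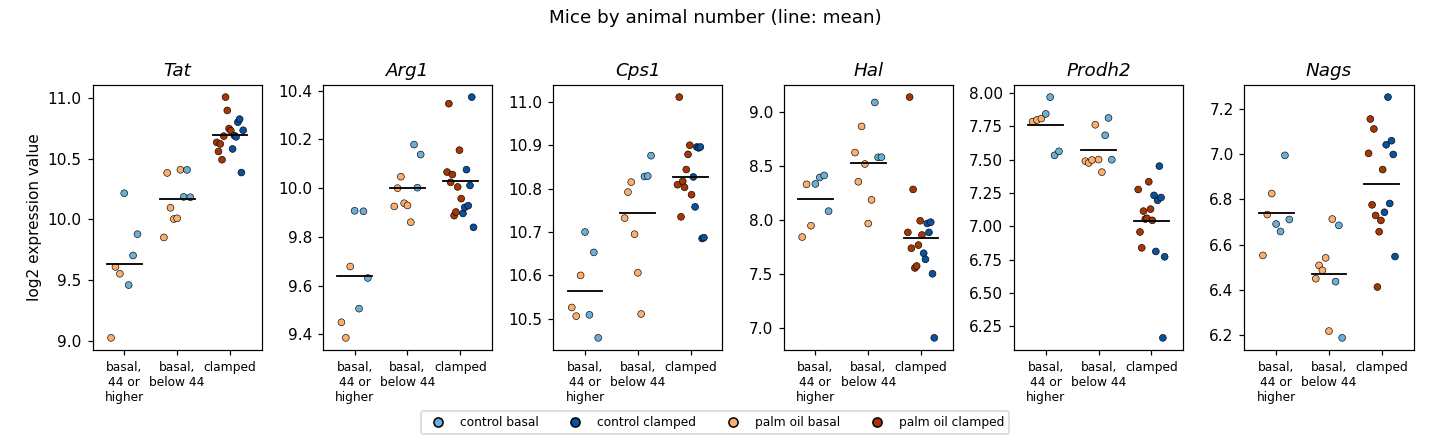
Log2 expression values of 6 members in basal mice numbered 44 or higher (n = 7), the other basal mice (n = 9) and clamped mice (n = 16), with 1 point per mouse coloured by group and the mean as a line. Tat and Arg1 are on average lowest in the basal mice numbered 44 or higher, and the mean of Prodh2 is lower in the clamped mice than in both sets of basal mice.

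The counts moved with these arrays. Without the 7 basal arrays numbered 44 or higher, 0 members rose and 3 fell in control mice (Prodh2, Bcat2 and Hal), and 2 rose (Tat and Aass) and 1 fell (Bcat2) in palm oil mice. Over all genes 396 rose and 630 fell there in control and 529 and 761 in palm oil mice, where all arrays gave 1033 and 907, and 835 and 843. With the 12 acinar-high arrays left out, Tat rose and 4 fell in control mice (Prodh2, Bckdha, Uroc1 and Ftcd), and in palm oil mice Tat rose and none fell. All genes gave 541 rises and 452 falls in control and 290 and 446 in palm oil mice. Fewer arrays enter both settings. Without control clamped replicate 6, 8 members fell in control mice, Haao and Amt having dropped out. Without palm oil clamped replicate 2, 12 fell in control and 6 in palm oil mice, the latter being Amt, Prodh2, Bcat2, Uroc1, Amdhd1 and Ftcd. In the average of both clamp differences the 12 falls became 9 without the 7 arrays and 9 without the acinar-high arrays. Haao, Prodh2, Bcat2, Bckdha, Hal, Uroc1, Amdhd1 and Ftcd fell in both settings, Amt only in the first and Got2 only in the second. The 5 rises became 3 (Tat, Aass and Nags) and 2 (Tat and Nags). Without the other 9 basal arrays 6 rose and 9 fell, and Nags, Bcat2, Hal and Amdhd1 were lost. All genes gave 1862 rises and 1877 falls on all arrays, 1033 and 1721 without the 7, and 906 and 1174 without the acinar-high arrays. Without the other 9 they gave 2406 and 2323. Neutrophil markers, of which 6 of 7 rose in each gavage group, averaged 1.96 to 2.81 in basal and 3.20 to 4.49 in clamped arrays. Hepatocyte markers rose for 2 of 7 in each, and their mean level was 10.05 to 10.49 in basal and 10.39 to 10.59 in clamped arrays. The part of acinar and neutrophil RNA in the results of genes other than Bcat2 was not tested beyond the values given.

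The clamp differences of control and palm oil mice come from separate arrays, so that one can be set beside the other. Over the 38 members, which were all measured on the same arrays, they had a Pearson correlation of 0.84 and a Spearman correlation of 0.80. Of the members 14 lay below 0 in both, 13 above 0 in both, 9 below 0 in control and above 0 in palm oil mice, and 2 the other way. The 4 members that fell in palm oil mice made up 40% of the control falls and 100% of the palm oil falls, and Tat was 100% of the control and 50% of the palm oil risers. These correlations, sign counts and overlaps were not computed over all genes. Both comparisons also share the differences in procedure and animal numbers, and whether the agreement is particular to the members was not tested. All 10 members that fell in control mice were below 0 in palm oil mice too, each by a smaller amount, which choosing them by their control fall favours. Whether a clamp difference itself differed between gavage groups was tested as the interaction, in which 0 of the 38 members passed (0% of all genes), and 3 had an unadjusted limma p under 0.05.

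Those 3 were Prodh, Dbt and Asl. The interaction, palm oil minus control in the clamp difference, was 0.61 ± 0.26 for Prodh, 0.35 ± 0.15 for Dbt and 0.39 ± 0.18 for Asl, each with a limma adjusted p of 1. For Hal it was 0.53 ± 0.26 (adjusted p = 1) and for Tat 0.16 ± 0.21. The members had a median interaction of 0.16 with 33 of 38 above 0, where that of all genes was 0.00 with 49.7% above 0. Without control clamped replicate 6 that median was 0.07 with 31 above 0, and leaving out each array in turn gave medians of 0.07 to 0.22. Prodh had 0.35 without replicate 6. The 95% interval of the interaction lay within 2-fold either way for 31 members and within 1.5-fold for 25, and reached beyond 1.5-fold for the other 13.

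Palm oil itself was compared with water in basal and in clamped mice. No member passed in either comparison, nor did any gene (0% in basal and 0% in clamped mice). In basal mice 13 of 38 members lay above 0 with a median of -0.05, where 51% of all genes lay above 0, and 0 members had an unadjusted limma p under 0.05. Leaving out each array in turn gave 8 to 16 members above 0 and medians of -0.08 to -0.02. The median was 0.07 without the acinar-high arrays, 0.00 without the 9 basal arrays numbered below 44 and -0.12 without the other 7. The smallest p belonged to Asl, Kmo and Aldh4a1. Asl read 9.44 to 10.06 (median 9.96) in control and 9.36 to 9.99 (median 9.59) in palm oil basal livers (-0.22 ± 0.12, n = 9 and 7, limma adjusted p = 0.977), and Kmo 8.83 to 9.18 (median 8.98) and 9.01 to 9.32 (median 9.13) (0.14 ± 0.08). Aldh4a1 read 7.33 to 7.62 (median 7.52) and 6.99 to 7.62 (median 7.26) (-0.21 ± 0.14), and 6 of 9 palm oil values lay below every control value. The 95% intervals of all 38 members lay within 2-fold and those of 35 within 1.5-fold, so that a larger difference in array values than 2-fold is outside the interval for each. For Ass1 and Bhmt this says little about RNA.

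**Figure D5:**
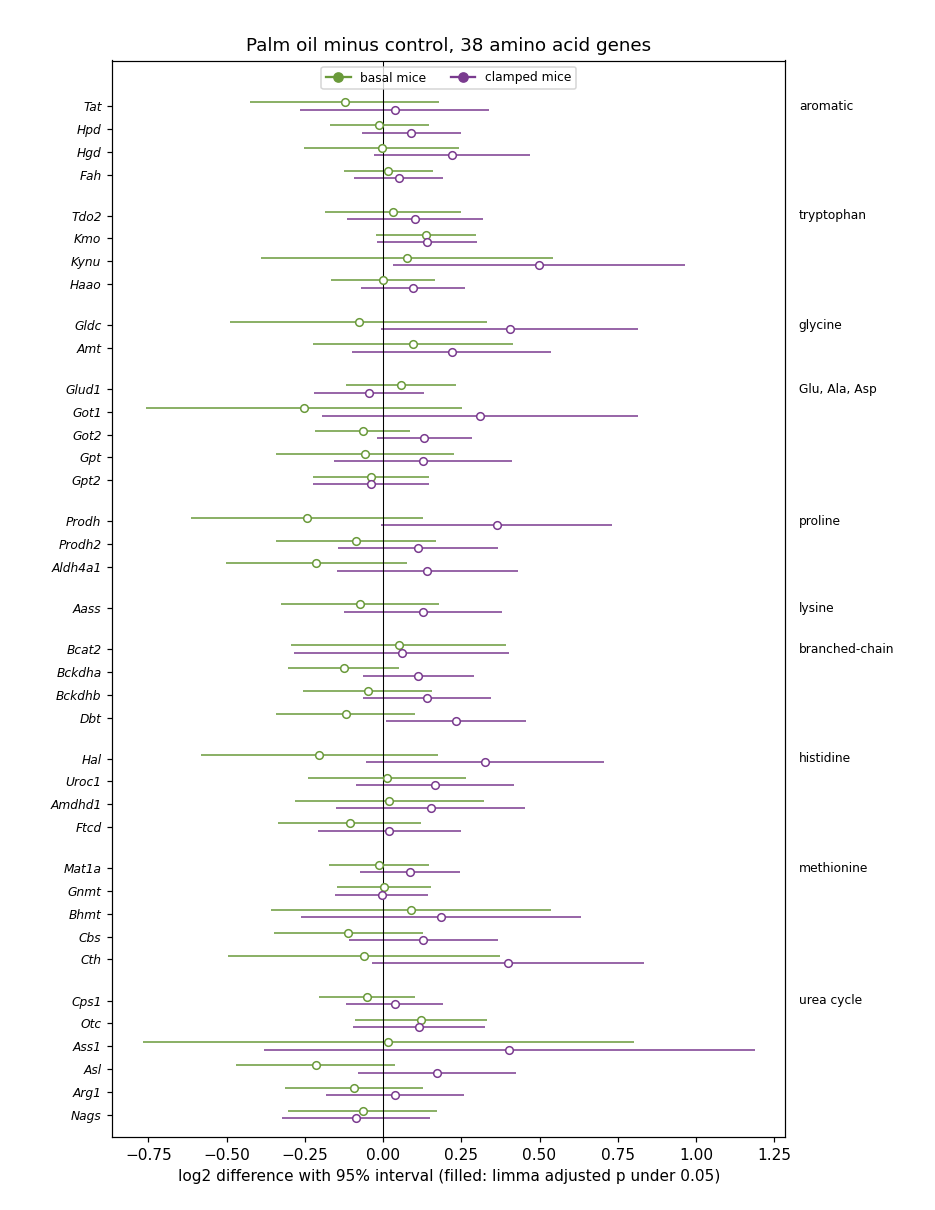
Log2 difference of palm oil minus control mice with its 95% interval for the 38 measured members, grouped by the amino acid they act on, in basal mice (green, n = 9 and 7) and clamped mice (purple, n = 9 and 7). All points are open, since 0 passed the limma test, and in the clamped mice 34 of 38 lie right of 0.

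In clamped mice 34 of the 38 members lay above 0, with a median of 0.13, where the median of all genes was 0.00 and 50.4% lay above 0. Without control clamped replicate 6 the count was 29 and the median 0.07, and leaving out each array in turn gave medians of 0.07 to 0.17. Control clamped replicate 7 had the next lowest mean over the members in that group, 7.88 after 7.60 in replicate 6. Without replicate 7 the count was 33 and the median 0.09. Leaving out both together was not tested. This comparison and the interaction share the clamped arrays. The smallest p belonged to Kynu, Dbt and Gldc, and 2 members had an unadjusted limma p under 0.05. Kynu read 5.30 to 7.70 (median 6.97) in control and 6.44 to 7.83 (median 7.44) in palm oil clamped livers (0.50 ± 0.23, n = 9 and 7, limma adjusted p = 1), and differed by 0.25 without replicate 6. Dbt read 6.92 to 7.80 (median 7.67) and 7.50 to 8.13 (median 7.69) (0.23 ± 0.11) and differed by 0.14 without that replicate. Gldc read 5.15 to 6.92 (median 6.20) and 6.09 to 7.30 (median 6.58) (0.40 ± 0.20), and 0.25 without it. Groups overlapped for all 3 genes. The 95% interval lay within 2-fold for 37 members and within 1.5-fold for 30.

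Other genes of amino acid metabolism were counted from lists drawn up by name. Of 62 other enzymes measured, 2 rose and 15 fell in control mice and 4 rose and 7 fell in palm oil mice, with median differences of -0.25 and -0.10. Over 51 alternatives 0 to 6 rose and 4 to 21 fell in control mice. In palm oil mice 0 to 7 rose and 2 to 10 fell. The shares over all genes were 4.66% rising and 4.09% falling in control and 3.76% and 3.8% in palm oil mice, for comparison with these counts and with those of the transporters and regulators. Shmt1, the cytosolic serine hydroxymethyltransferase, read 7.78 to 8.15 (median 8.03) in control basal and 6.83 to 7.54 (median 7.31) in control clamped livers without overlap, and fell 1.61-fold there and 1.51-fold in palm oil mice (limma adjusted p = 2.77e-05 and 3.13e-05). Acmsd, which diverts tryptophan carbon from NAD synthesis, rose in control (0.91 ± 0.29, adjusted p = 0.0441) and palm oil mice (1.21 ± 0.26, adjusted p = 0.00172). Asns, asparagine synthetase, was near background in basal livers, where its median was 2.66 in the control and 2.83 in the palm oil group. It rose in palm oil mice (adjusted p = 0.0496) by 1.16 in array values and did not pass in control mice. Aspa, aspartoacylase, fell in control mice (-0.83 ± 0.27, adjusted p = 0.0485). Gatm, the first enzyme of creatine synthesis, read 2.15 to 3.62 (median 2.80) in control basal livers, near background, and fell in both (-1.02 ± 0.16 and -0.65 ± 0.14).

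Of 15 measured amino acid transporters and carriers, 3 rose and 2 fell in control mice and 4 rose and 2 fell in palm oil mice. Over 51 alternatives 2 to 4 rose and 1 to 3 fell in control mice, and 2 to 5 rose and 1 to 2 fell in palm oil mice. Slc3a1, the heavy chain of a cystine and dibasic amino acid transporter, read 5.59 to 6.54 (median 6.03) in control basal and 7.26 to 8.29 (median 7.79) in control clamped livers, and rose 3.33-fold (1.74 ± 0.19, limma adjusted p = 1.2e-07) and 4.21-fold in palm oil mice (adjusted p = 1.87e-10). Slc38a2, a sodium-coupled transporter of small neutral amino acids, rose 2.01-fold and 2.18-fold (adjusted p = 3.85e-05 and 8.2e-07). Basal and clamped values of both transporters did not overlap in either gavage group. Of 19 measured regulators, 3 rose and 5 fell in each gavage group. Over the alternatives 2 to 3 rose and 3 to 5 fell in control mice, and 0 to 4 rose and 1 to 5 fell in palm oil mice. Sirt3, a mitochondrial deacetylase that acts on urea cycle enzymes, fell in control (-0.78 ± 0.11, adjusted p = 4.6e-06) and palm oil mice (-0.48 ± 0.09, adjusted p = 0.000602). Foxa1, a liver transcription factor, fell in both (-0.62 ± 0.16 and -0.77 ± 0.14). Cebpa and Cebpb, a pair of CEBP factors that bind many liver promoters, moved in opposite directions. They were chosen after their values were seen. Cebpa fell (-0.56 ± 0.10, limma adjusted p = 0.000265) and Cebpb rose (0.66 ± 0.16, adjusted p = 0.00547) in control mice, and in palm oil mice they differed by -0.31 ± 0.09 and 0.65 ± 0.14, both past the test.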

How the data were processed

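Total liver RNA, extracted with miRNeasy columns and DNase, was amplified and biotin-labelled with NuGEN kits and hybridised to 1 array per mouse, per the labels' protocols. The authors deposited log2 values. RMA and Expression Console 1.3.0.187 are named as their tools in the submitters' processing notes. RMA corrects background, normalizes between arrays and summarises probe sets, which compresses dim values. The values were used as deposited, and array medians lay between 1.65 and 1.77. Precision is limited by how many arrays each group has.

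Of 41345 probe sets, 23521 had 1 gene symbol in the platform annotation, 1814 several and 16010 were unlisted. The brightest probe set on average represented each of 22180 genes. Groups came from sample titles. Limma 3.58.1 (R 4.3.3) was fitted to all 32 arrays with 1 mean per group and 28 residual degrees of freedom, for 5 contrasts. P-values were adjusted by Benjamini-Hochberg across the 22180 genes in each contrast, and 0.05 was the threshold. Errors after ± are SE and intervals are at 95%. The functions were tested on simulated data. Members, lists and alternatives were chosen with earlier results of these data known.

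Named in full were the 6 largest rises and falls past the threshold in each clamp contrast, Tat, the urea cycle genes and the 3 smallest p of each palm oil contrast and the interaction. Of other pathway genes, the 3 largest rises and falls were named. Alternatives changed the probe set rule, normalization, prior, weights, terms, threshold and arrays used. Promoter sequences are RefSeq's for GRCm38.p6, and TATAAA was added to the motifs after the data were seen.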

Additional observations from a re-analysis of the deposited data

Results flagged for a closer look

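Among 80 groups of 7 or 9 mice, for 20 members, 6 had a highest or lowest mouse farther from the rest than Dixon's critical value allows. Chance gives about 1 in 20 groups. Palm oil clamped replicate 2 stood high for Hal, at 9.14 where the next mouse read 8.29, and for Ftcd, at 8.13 against 7.62. Control clamped replicate 7 stood low for Ftcd, at 6.93 where the next read 7.44. Control clamped replicate 6 stood low for Prodh, at 5.08 against 6.51. Control basal replicate 5 stood low for Bcat2, at 4.84 against 5.47, and palm oil basal replicate 9 stood high for Dbt, at 7.86 against 7.62. The cause of these values was not tested.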

How the results depend on the processing

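The counts of 0 members for both palm oil comparisons and the interaction held under every alternative run. The average of both clamp differences, with 5 rises and 12 falls, is a separate comparison on all arrays and not another processing of either. In control mice the count of rising members, 1, became 0 without the 7 basal arrays numbered 44 or higher, and lay between 1 and 2 when each array was left out. The 10 falling members became 6 with the compared groups alone, 3 without those 7 arrays, 6 without the other 9 basal arrays and 4 without the 12 acinar-high arrays, and 7 to 12 when each array was left out. In palm oil mice the 2 rising members became 4 with genes above the median level alone, a trended prior, the animal number as a term or a threshold of 0.1. They became 5 with the basal part as a block or without the other 9 basal arrays, and 1 without the acinar-high arrays, and lay between 2 and 3 when each array was left out. The 4 falling members became 2 with arrays centred to 1 median, all table entries instead of 1 per gene, an exact rank sum test or the acinar level as a term. They became 1 without the 7 or the other 9 basal arrays and 0 without the acinar-high arrays. When each array was left out they numbered 2 to 6, with 2 left without palm oil basal replicate 3, 7 or 8 or palm oil clamped replicate 3, 5, 6 or 8. Settings with fewer arrays test with less precision, and the cause of the other changes was not tested. No called result changed sign. Among uncalled clamp values of named genes the sign changed under 13 alternatives for Otc, 1 for Ass1 and 2 each for Cps1 (to -0.04), Arg1 (to -0.10) and Asl (to 0.05) in control mice, and under 10 for Otc, 11 for Ass1 and 2 for Kynu (to -0.12) in palm oil mice. Mice with the same replicate number did not deviate together (11 of 42 pairs had a correlation over 0.1, median 0.02). Pairing by neighbouring animal numbers was not tested. With the replicate block, 1 member rose and 11 fell in control mice and 2 rose and 3 fell in palm oil mice.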
